A study of Mus musculus with 2 samples.

Results

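Splicing factor and hnRNP genes were examined in DP thymocytes, the CD4+CD8+ stage of T-cell development, with and without Cxxc1. The members were all genes of the expression table whose symbol begins with Srsf and a digit, Hnrnp, Sf3a or Sf3b, Snrp, Prpf or U2af. This rule used names and no measured value. It gave 68 of 21041 genes, in 3 groups: 11 SR proteins, 20 hnRNPs and 37 core snRNP and spliceosome proteins. The last group held 12 Snrp, 9 Sf3, 13 Prpf and 3 U2af genes.

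The series held 2 mRNA libraries, 1 from WT and 1 from *Cxxc1*-deficient DP thymocytes, and the comparison addressed how loss of Cxxc1 changed gene expression in these cells. Cxxc1 is a CpG-binding subunit of the SET1 histone H3K4 methyltransferase complexes. By the study's methods, WT mice carried the floxed *Cxxc1* allele (*Cxxc1* fl/fl) without Cre, and the deficient mice were *Cxxc1* fl/fl hCD2-Cre, whereas the genotype field of the deficient sample reads Cxxc1+/-. Mice of the study were 3 to 4 weeks old unless stated otherwise, on a C57BL/6 backcross. The hCD2 promoter drives Cre from early thymocyte stages and in other lymphoid cells, and by the study deletion begins before the DP stage and is complete at it. With 1 library per genotype there was no replicate check: no difference below has a test, and a fold is a ratio of 2 libraries. How many animals gave each library is not given in the sources used here.

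Pre-mRNA splicing is carried out by the spliceosome, which is built on each intron from small nuclear ribonucleoproteins (snRNPs) named after their U-rich RNAs. The U1 snRNP recognises the start of the intron, U2 with the SF3 and U2AF proteins recognises the branch site and the end of the intron, and U5 with the U4/U6 snRNP brings in the catalytic parts. SR proteins bind exonic enhancers and promote the use of nearby splice sites, and hnRNPs coat the nascent transcript and often act as silencers. In T cells, members of both families control alternative exons of surface receptors such as CD45 (*Ptprc*).

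The targeted gene was measured at 91 in the WT library and at 50 in the deficient one, giving a ratio of 0.549 as deposited, and of 1.1 when the deficient library is multiplied so that genes with a mean of at least 100 have equal medians. Reads from exons outside the floxed part also enter this value. All values are deposited normalised expression values, scaled to gene length and rounded to whole numbers, whose unit was not named. The 10 DP thymocyte markers, among them *Cd4*, *Cd8a* and *Rag1*, were present in both libraries, at 79 to 20778 in WT and 44 to 5058 in deficient cells, and 10 of 10 were lower in the deficient library as deposited and 8 of 10 under the strongest scaling tried. Their summed level was 36188 against 9698. For other cell types, marker values summed to 177 in WT and 124 in deficient cells over 5 B cell markers. Over 5 erythroid markers, with *Hba-a1* listed at 0 in both libraries, the sums were 105 and 87. They were 214 and 209 over 5 macrophage and dendritic cell markers, and 196 and 191 over 8 markers of thymic epithelium and stroma. In WT these markers stood at 18 to 74, 0 to 36, 19 to 101 and 4 to 35 in turn. The median gene of the table stood at 36 in each library, so these sums do not show that such cells were present. Of 15 Y-linked genes, 0 were above 0 in WT and 7 were in the deficient library, so sex and genotype cannot be told apart. In a bulk library, fewer cells of a type and less RNA per cell cannot be told apart either.

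The sum of all values was 1551994 for WT against 981677 for the deficient library, and the median gene stood at 36 in each. From the steps between low values, about 1381109 reads lay on genes in WT and 710141 in the deficient library. Reads behind each member are therefore approximate. The 95% exact (Clopper-Pearson) intervals given with folds rest on them and cover counting error only, not the spread between animals.

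*Snrpd2*, *Snrpg* and *Snrpc* were listed at 0 in both libraries. These 3 genes encode small proteins of snRNPs: *Snrpd2* and *Snrpg* give Sm proteins of the ring around snRNAs, and *Snrpc* gives U1-C. Genes at 0 in both made up 4.35% of the table, and the 3 of 68 members stood near that share. The authors kept uniquely mapped reads of 50 bases, so the coding sequences were searched in mm9 (NCBIM37) for stretches of this length that recur elsewhere. One such stretch of each gene is shown, because an exact copy stands at another place in the genome and a read from it has no unique position:
Snrpd2: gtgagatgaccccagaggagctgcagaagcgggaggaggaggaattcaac
Snrpg: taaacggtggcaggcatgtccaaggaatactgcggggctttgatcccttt
Snrpc: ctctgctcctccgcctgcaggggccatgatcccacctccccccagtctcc
The *Snrpd2* stretch lies in coding sequence at chr7:19736590-19736639 (+), and its copy at chr3:68113029-68113078 (-) falls within *Gm5848* and *Schip1*. The stretch of *Snrpg*, at chr6:86326495-86326544 (+), is repeated at chr17:26236056-26236105 (-) in the pseudogene *Gm8186*. For *Snrpc*, at chr17:27982168-27982217 (+), copies stand at chr14:118581062-118581111 (-), outside annotated genes, and at chr15:65760246-65760295 (-), within the pseudogene *Gm2991* and *Hhla1*. Matches elsewhere with at most 2 mismatches were also counted over the 50-base windows of each gene's longest coding transcript. They were found for 74.8% of the windows of *Snrpd2*, 39.3% of those of *Snrpg* and 84.0% of those of *Snrpc*. Whether such copies led to the values of 0 was not tested.

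Of the 65 members above 0 in at least 1 library, 59 had a lower value in *Cxxc1*-deficient cells and 6 a higher one, where 60% of all genes were lower. The value was reduced 2-fold or more for 45 members, against a background of 17.4% of all genes, and raised 2-fold or more for 0 members, against 5.89%. The median member was 2.72-fold lower (log2 -1.45), while the median over all genes was -0.20 on the log2 scale. The summed value of the members was 19822 in WT, 1.28% of the library, and 6256 in deficient cells, 0.637%. Scaling changes these counts. Genes whose mean over both libraries reached 100 are called well expressed here. In level scaling, the deficient library was multiplied so that well-expressed genes had equal medians, a shift of 1.00 on the log2 scale. Under it 45 members were lower and 14 changed direction. The median log2 ratio of all genes was then 0.795. Counts under level scaling stand here and below without the share of all genes. Relative to the median of all genes, the members' median was -1.24 on the log2 scale, a difference that a constant factor leaves as it is by construction.

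**Figure D1:**
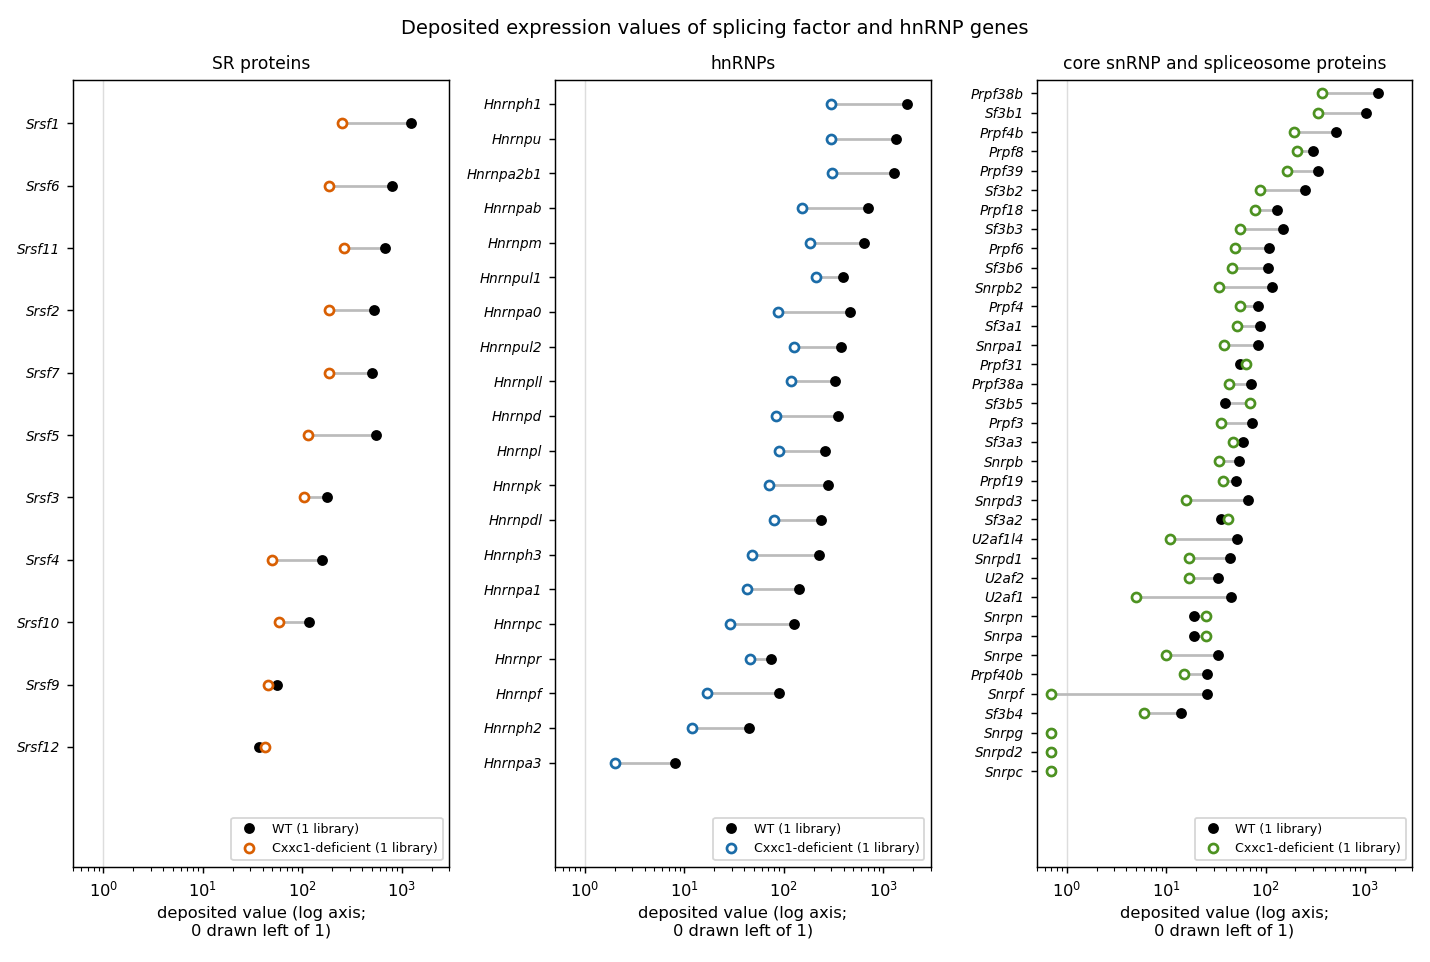
Deposited value of each member on a log axis in the WT library (filled) and the *Cxxc1*-deficient library (open), 1 library each, with values of 0 drawn left of 1, and a line joining the values of a gene. Of the core genes, 1 is not drawn. Most open circles lie left of the filled ones, with 10 of 11 SR proteins, 20 of 20 hnRNPs and 29 of 34 core genes lower as deposited and 8, 18 and 19 of them lower after level scaling.

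Among SR proteins, 10 of 11 were lower in *Cxxc1*-deficient cells and 8 at least 2-fold lower, with a median of 2.70-fold. *Srsf1*, the founding SR protein, was the most abundant, at 1235 in WT and 252 in the deficient library, 4.90-fold lower with an interval of 4.32 to 5.58. *Srsf5* was measured at 557 and 114 (4.89-fold, 3.42 to 7.04). Of its windows, 82.7% recur elsewhere. *Srsf6* followed with 803 and 186 (4.32-fold, 3.60 to 5.24), and *Srsf4*, of the same subfamily of large SR proteins, with 159 and 50 (3.18-fold, 2.13 to 4.79). These 4 genes had the largest folds of the SR group.

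Another set of SR genes lay between 2- and 2.87-fold. *Srsf2*, which encodes SC35, a marker protein of nuclear speckles, was 531 in WT and 185 in deficient cells (2.87-fold, 2.21 to 3.78). *Srsf7* was 505 and 187 (2.70-fold, 2.13 to 3.48). *Srsf11* was 681 and 264 (2.58-fold, 2.17 to 3.08), and its interval lies wholly below that of *Srsf1*. *Srsf10*, which acts as a repressor of splicing when dephosphorylated, was 118 and 59 (2-fold, 1.41 to 2.87).

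The remaining 3 SR genes were nearer to equal. *Srsf3*, the smallest SR protein, was 177 and 105 (1.69-fold, 1.21 to 2.35), and 64.0% of its windows recur elsewhere. *Srsf9* was 56 and 45, with an interval of 0.546 to 2.98 that holds 1. *Srsf12* was 37 and 42, also with an interval that holds 1 (0.502 to 1.59). Near-equal values were usual at the level of *Srsf12*, since all genes with a mean from 20 to 50 had a median log2 ratio of 0. Under level scaling, *Srsf3* and *Srsf9* were no longer lower. A higher level in WT did not always come with a larger fold, since *Srsf11* stood above *Srsf5* in WT and had the smaller fold.

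All 20 hnRNP genes had lower values in *Cxxc1*-deficient cells as deposited, or 18 of 20 under level scaling, and 18 were at least 2-fold lower as deposited. The median hnRNP value was 299.5 in WT and 86 in deficient cells, and the median fold was 3.94. *Hnrnph1*, a binder of G-rich RNA, had the highest value of all members, 1722 in WT and 300 in deficient cells (5.74-fold, 4.83 to 6.83). Its relative *Hnrnph3* was 228 and 48 (4.75-fold, 3.07 to 8.02). *Hnrnpf*, of the same subfamily, was 90 and 17 (5.29-fold, 2.63 to 12.3), with 81.3% of its windows found elsewhere. The intervals of these 3 H/F genes overlapped.

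The A/B and D subfamilies, whose members carry paired RNA recognition motifs, lay close to each other. *Hnrnpa2b1* was 1269 in WT and 302 in deficient cells (4.20-fold, 3.68 to 4.83). *Hnrnpa0*, an intronless gene, was 465 and 88 (5.28-fold, 3.88 to 7.23). *Hnrnpab* was 707 and 154 (4.59-fold, 3.59 to 5.93). *Hnrnpd*, which encodes AUF1, a binder of AU-rich elements in mRNAs, was 351 and 84 (4.18-fold, 3.24 to 5.37). Its paralog *Hnrnpdl* was lower by less, at 239 and 80 (2.99-fold, 2.16 to 4.28). Of the A/B genes, *Hnrnpa1* and *Hnrnpa3* stood at low values, 143 and 43 for the former and 8 and 2 for the latter. Of their windows, 94.8% and 97.5% recur elsewhere.

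*Hnrnpu*, which encodes the scaffold-attachment protein SAF-A, was 1348 in WT and 301 in deficient cells (4.48-fold, 3.91 to 5.16). Its paralogs had smaller folds. *Hnrnpul2* was 377 and 126 (2.99-fold, 2.50 to 3.61), and *Hnrnpul1* was 391 and 211 (1.85-fold, 1.53 to 2.27). The 3 intervals do not overlap, so the difference within this subfamily is larger than counting error in these 2 libraries. Ratios also depended on level. Against the median log2 ratio of all genes of their level, *Hnrnpu* lay at -0.55, *Hnrnpul2* at -0.37 and *Hnrnpul1* at 0.33. *Hnrnpul1* was also the only hnRNP gene above the median of all genes of its level, and it changed direction under level scaling, as did *Hnrnpr* (74 and 46, interval 0.989 to 2.72).

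A further 4 well-expressed hnRNPs were lower in the deficient library. *Hnrnpk*, a poly(C)-binding protein, was 275 in WT and 71 in deficient cells (3.87-fold, 2.81 to 5.56), with 66.3% of its windows found elsewhere. *Hnrnpm* was 635 and 183 (3.47-fold, 2.90 to 4.17). *Hnrnpl* was 257 and 90 (2.86-fold, 2.08 to 3.98) and *Hnrnpll* was 324 and 119 (2.72-fold, 2.11 to 3.56). The last pair encodes the proteins that repress the variable exons of *Ptprc* in lymphocytes, and their intervals overlapped.

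Core spliceosome genes were lower less uniformly. Of the 34 above 0, 29 were lower as deposited and 19 under level scaling, and 19 were at least 2-fold lower as deposited, with a median of 2.11-fold. Many of them encode small proteins and had few reads. Of the 34, 19 had under 20 approximate reads in the deficient library, and the intervals of 16 held 1.

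Among the SF3 genes, which encode subunits of the SF3a and SF3b complexes of the U2 snRNP, 5 of 9 were at least 2-fold lower. *Sf3b1*, the largest SF3b subunit and a contact of the branch site, was 1033 in WT and 339 in deficient cells (3.05-fold, 2.74 to 3.39). *Sf3b2* was 252 and 87 (2.90-fold, 2.16 to 3.95), and *Sf3b3* was 150 and 55 (2.73-fold, 1.97 to 3.82). The 3 large SF3b subunits thus had folds with overlapping intervals. The SF3a genes were nearer to equal, with 87 and 52 for *Sf3a1*, 36 and 42 for *Sf3a2* and 60 and 47 for *Sf3a3*. They also stood at lower levels. Against the median log2 ratio of all genes of their level, these 3 lay at -0.21, 0.22 and 0.18. *Sf3b1*, *Sf3b2* and *Sf3b3* lay at 0.0006, -0.53 and -0.45, so the 2 sets overlapped. All genes with a mean from 20 to 50, the level of *Sf3a2*, had a median log2 ratio of 0. Its near-equal values are therefore not particular to it. *Sf3b5*, a short gene, was higher in deficient cells, at 39 and 70, on about 7 and 11 reads.

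The Prpf genes, named after yeast pre-mRNA processing mutants, had the smallest median fold of the families, 1.73. This median turned to a higher level (log2 0.20) under level scaling. Against the median log2 ratio of all genes of their level, the Prpf median was -0.20, close to the -0.21 of the Sf3 genes. *Prpf38b* was the most abundant, at 1361 in WT and 368 in deficient cells (3.70-fold, 3.20 to 4.28). *Prpf4b*, a kinase that phosphorylates splicing proteins, was 517 and 194 (2.66-fold, 2.25 to 3.16). The U1-associated *Prpf39* was 334 and 165 (2.02-fold, 1.67 to 2.47). *Prpf18*, a factor of the second catalytic step, was 130 and 79 (1.65-fold, 1.18 to 2.28).

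*Prpf8*, the central scaffold of the U5 snRNP, had the smallest fold of the well-expressed members. It was 303 in WT and 207 in deficient cells, 1.46-fold lower with an interval of 1.27 to 1.68, on about 552 and 325 reads. This interval does not overlap those of *Sf3b1*, *Prpf38b* or *Prpf4b*, and it overlaps those of *Prpf39* and *Prpf18*. *Prpf8* also changed direction under level scaling and when both libraries were brought to equal sums after leaving out the top 100 genes.

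In the Snrp family, 6 of the 9 genes above 0 were at least 2-fold lower. *Snrpf*, an Sm protein gene, was 26 in WT and listed at 0 in deficient cells, on about 5 reads in WT, so no fold is given. It entered the counts at the floor of 1. The U2 snRNP gene *Snrpb2* was 115 and 34 (3.38-fold, 1.86 to 6.33), and *Snrpd3* was 67 and 16 (4.19-fold, 0.918 to 40.4). *Snrpa* and *Snrpn* were each 19 and 25. Most Snrp differences were therefore not separable from counting error at this depth.

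The U2AF genes encode the dimer that reads the polypyrimidine tract and the AG at the end of the intron. *U2af1* was 45 in WT and 5 in deficient cells, on about 10 and 1 reads (9-fold, 1.22 to 374), with 92.0% of its windows found elsewhere. Its relative *U2af1l4*, which has a role in T-cell splicing, was 52 and 11 (4.73-fold, 2.06 to 12.4). *U2af2* was 33 and 17.

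As deposited, the interval of the fold lay above 1 for 45 of 65, where it did so for 22% of all genes with an annotated length, and above 2 for 28, against 4.29%. For the other 20 it held 1. Among well-expressed genes the interval lay above 1 for 88.1% and for 31 of 31 members, so at this level the members stood near the background. Under level scaling the interval lay above 1 for 28 of 65 members, and the share of all genes under that scaling is not given here. As deposited it lay above 1 for 9 of 11 SR proteins, 18 of 20 hnRNPs and 18 of 34 core genes. All 6 members with a higher value in deficient cells, *Srsf12*, *Prpf31*, *Sf3a2*, *Snrpn*, *Snrpa* and *Sf3b5*, were among those that held 1.

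Ratios of all genes depended on level, and 31 of the 65 members above 0 were well expressed. Of the 2472 well-expressed genes, 95.2% were lower in deficient cells as deposited, 56.8% by 2-fold or more, 0.485% were at least 2-fold higher, and the median was 2.12-fold lower. Of the 31 well-expressed members, 31 were lower, 27 by 2-fold or more, 0 were at least 2-fold higher, and the median was 2.99-fold lower. The share of reduced genes thus stood nearer to that of the members among genes of this level than over the whole table.

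**Figure D2:**
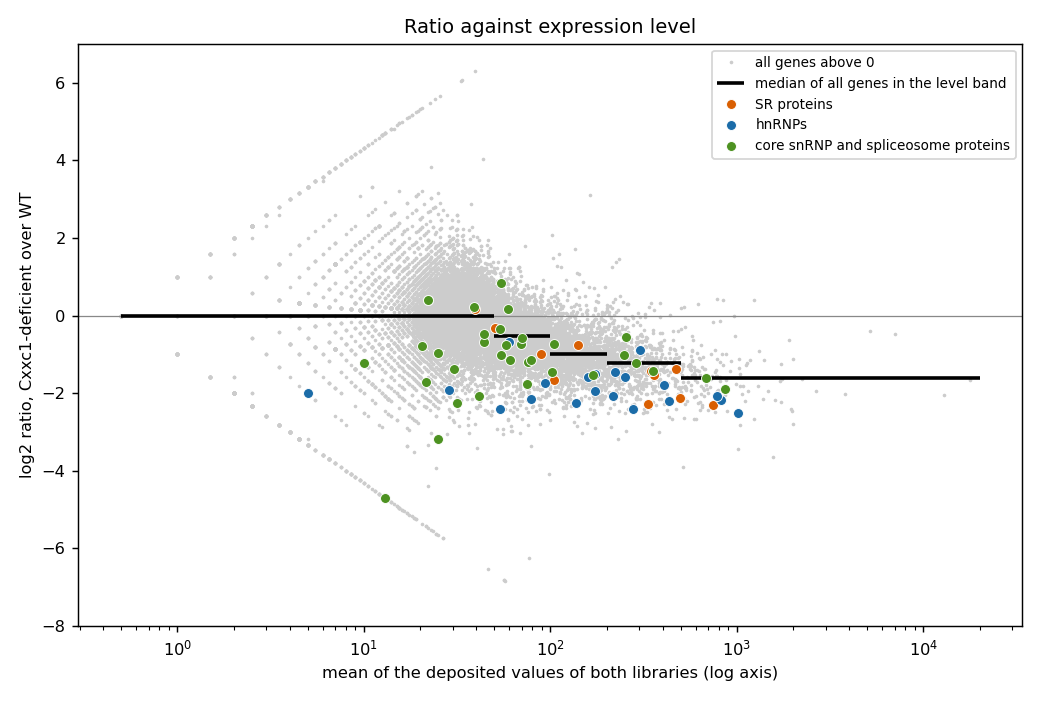
Log2 ratio of *Cxxc1*-deficient to WT value (y axis) against the mean of both libraries (x axis, log scale) for all genes (grey) and members (coloured by group), with the median of all genes in each level band as a black line. The median of all genes was 0 below a mean of 50 and -1.61 from a mean of 500, and 51 of 65 members lie below the line of their band.

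Members were therefore also read against genes of the same level, in bands with edges at a mean of 20, 50, 100, 200 and 500. The median log2 ratio of all genes in these bands was 0, 0, -0.53, -1, -1.22 and -1.61. Below the median of their band lay 51 of 65 members, where 48.3% of all genes did, and 25 of the 31 well-expressed members, where 49.3% did. In the highest band 6 of 6 members were at least 2-fold lower, against 84.1% of all genes. In the band from 200 to 500 they were 14 of 16, against 65.9%, and from 100 to 200 they were 7 of 9, against 50.1%. From 50 to 100 the members were 9 of 17, against 20%, from 20 to 50 they were 6 of 14, against 6.31%, and under 20 they were 3 of 3, against 25.8%. The band from 20 to 50 held 11523 of the 20125 genes above 0, among them *Foxn1* and *Epcam*, markers of thymic epithelium. Genes of the same level there need not be genes that DP thymocytes express, which limits the comparison. Why the ratio depended on level was not tested. With bands set anew from the values under each of 4 scalings, 51 to 53 of 65 members lay below the median of their band. A constant factor shifts the ratios of members and of all genes alike, so this count was nearly fixed by construction.

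The 3 groups differed in this respect. Of the hnRNPs, 19 of 20 lay below the median of their level, by a median of 0.88 on the log2 scale, and of the SR proteins 8 of 11. Core genes lay below it in 24 of 34 cases, but in 5 of 9 among the well-expressed ones. *Sf3b1* sat on the median of its band, *Prpf39* and *Prpf18* lay above it, and *Prpf8* lay above it by 0.67. No test was made of these differences between groups, since genes of a family are not replicates.

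**Figure D3:**
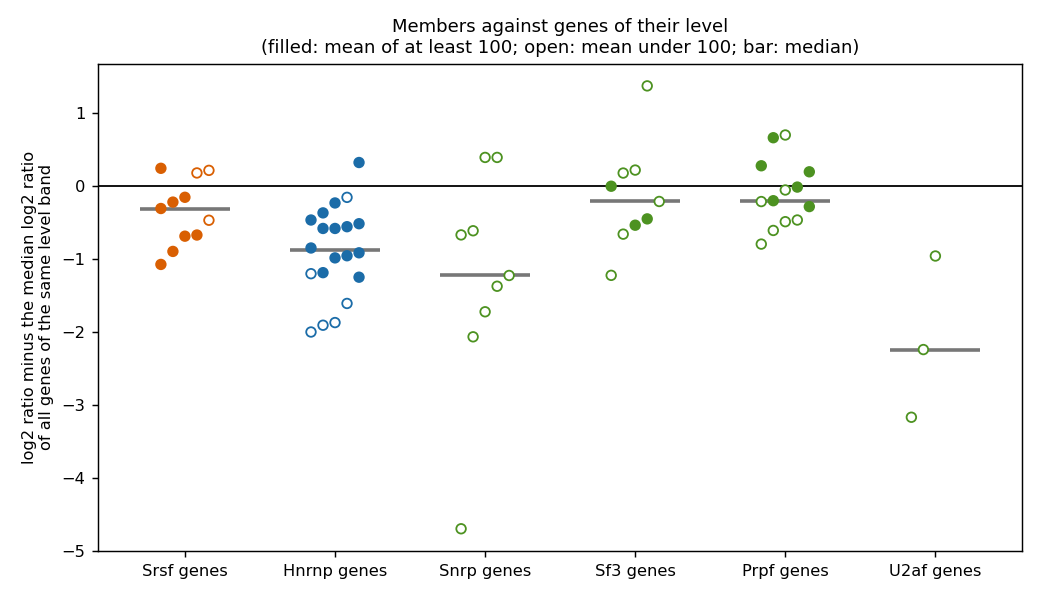
Log2 ratio of each member minus the median of all genes in its level band (y axis), by family (x axis), with 1 point per gene and 0 as the median gene of that level. Of the hnRNP points 19 of 20 lie below 0, while SR and core genes lie on both sides, with *Prpf8* at 0.67 and *Hnrnpul1* at 0.33.

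Members with many sequence copies elsewhere in the genome had lower deposited values. The 22 members with under 1% of their windows found elsewhere had a median value of 277.5 in WT, the 30 members with 1 to 50% had 106.5, and the 16 members with over 50% had 59.5. The median fold was 2.94, 2.58 and 2.93 in these sets, and at least 2-fold lower were 16 of 22, 19 of 29 and 10 of 14 of the genes above 0. The annotated exons of 22 of the 68 members overlapped another gene, and strand was not stated, so reads from such partners cannot be told apart. These included *Srsf1*, *Srsf2* and *Hnrnpab*. Among the 43 members above 0 without such an overlap, 27 were at least 2-fold lower, with a median log2 ratio of -1.37.

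**Figure D4:**
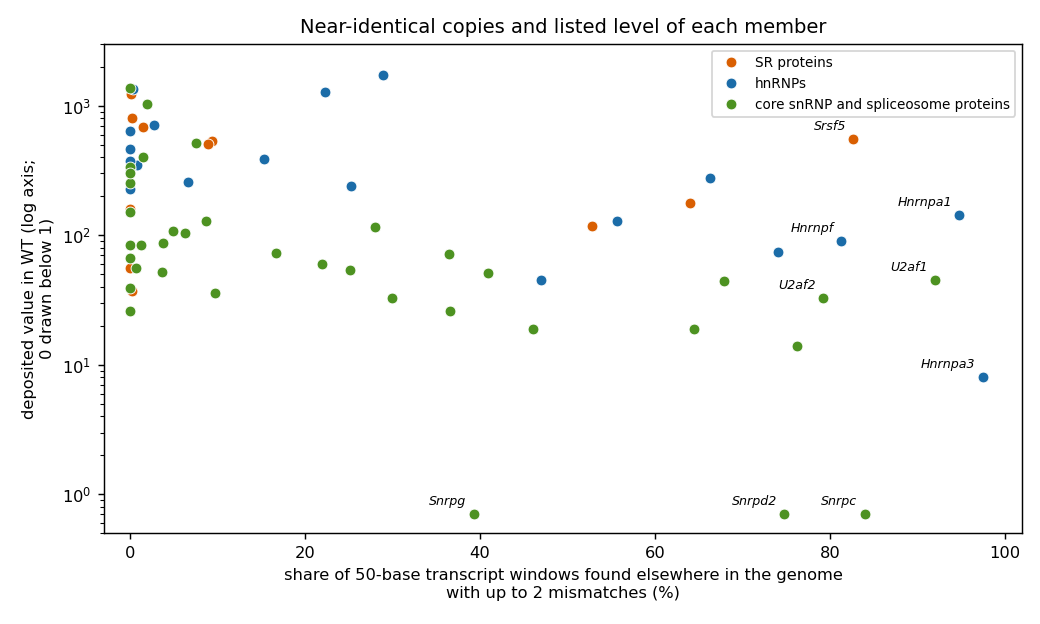
Deposited WT value of each member (y axis, log scale) against the percent of 50-base windows of its longest coding transcript that match another place in the genome with at most 2 mismatches (x axis). *Snrpd2*, *Snrpc* and *Snrpg*, at 74.8%, 84.0% and 39.3%, are listed at 0, while *Srsf5* reaches 557 at 82.7%.

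Cxxc1 binds unmethylated CpG through its CXXC zinc finger, so the CpG content of the members' promoters is described. In DP thymocytes the study found only a small share of Cxxc1-binding sites at CpG islands, though binding was enriched at island centres. Its Cxxc1 mutant without DNA-binding activity could still support development to the DP stage in culture. Whether CpG content bears on the folds was not tested. RefSeq sequences (GRCm38.p6) from 250 bases before to 50 bases after the start were found for 59 of the 68 members, with 80 promoters in all. Promoters of 4 genes are shown, 2 with large folds (*Srsf1* and *Hnrnpa0*) and 2 with small ones (*Prpf8*, 1.46-fold lower, and *Srsf12*, slightly higher), with CpG in capitals:
Srsf1: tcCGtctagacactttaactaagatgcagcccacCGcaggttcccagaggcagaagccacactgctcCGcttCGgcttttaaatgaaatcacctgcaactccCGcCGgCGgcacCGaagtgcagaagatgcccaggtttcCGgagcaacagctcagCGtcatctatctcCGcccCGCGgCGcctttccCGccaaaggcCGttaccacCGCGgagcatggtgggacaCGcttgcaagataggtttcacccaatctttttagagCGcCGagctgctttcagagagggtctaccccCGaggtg
Hnrnpa0: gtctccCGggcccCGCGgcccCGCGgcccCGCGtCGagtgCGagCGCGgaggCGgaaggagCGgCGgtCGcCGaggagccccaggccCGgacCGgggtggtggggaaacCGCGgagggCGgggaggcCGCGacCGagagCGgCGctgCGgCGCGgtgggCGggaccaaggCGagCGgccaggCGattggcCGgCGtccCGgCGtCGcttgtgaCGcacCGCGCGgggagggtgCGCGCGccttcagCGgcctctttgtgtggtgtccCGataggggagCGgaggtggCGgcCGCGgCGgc
Prpf8: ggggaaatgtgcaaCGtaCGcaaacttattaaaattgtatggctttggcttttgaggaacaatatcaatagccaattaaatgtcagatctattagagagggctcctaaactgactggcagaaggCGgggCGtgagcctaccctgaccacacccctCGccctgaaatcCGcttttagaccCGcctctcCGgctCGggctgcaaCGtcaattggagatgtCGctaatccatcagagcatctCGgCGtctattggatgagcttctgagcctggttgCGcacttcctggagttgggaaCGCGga
Srsf12: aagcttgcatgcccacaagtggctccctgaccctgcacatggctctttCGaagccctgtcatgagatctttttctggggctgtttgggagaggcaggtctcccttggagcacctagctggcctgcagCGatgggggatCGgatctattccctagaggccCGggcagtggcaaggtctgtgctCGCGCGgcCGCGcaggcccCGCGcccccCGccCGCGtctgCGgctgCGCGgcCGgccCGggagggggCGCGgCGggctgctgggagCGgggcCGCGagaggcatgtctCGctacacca
They lie at chr11:88047123-88047422 (+) with 22 CpG, chr13:58128507-58128806 (-) with 52, chr11:75486527-75486826 (+) with 16 and chr4:33209022-33209321 (+) with 26. The promoter of *Hnrnpa0* held the most CpG of all members' promoters, and that of *Srsf12*, a gene with nearly equal values, held more than that of *Srsf1*.

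The members' promoters held a median of 25 CpG, against 14 over all promoters of the table's genes and 23 over well-expressed genes. Members at least 2-fold lower had a median of 27 and the other members above 0 a median of 24. Short motifs were searched on both strands in the same windows. No motif contains another, though their sites may share bases. CCGGAAG, a core bound by ETS factors, was found in 31.2% of the members' promoters, 11.7% of all promoters and 19.5% of those of well-expressed genes. ATGGCGG, a core bound by YY1, stood in 17.5%, 5.38% and 9.67%. The GC box GGGCGG was found in 63.7%, 48.2% and 66.0%, and the TATA box TATAAA was found in 8.75%, 12.2% and 6.34%. A match to these letters is a description and not a site of binding.

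Other genes of the splicing pathway and of related protein families, in 6 lists chosen by function or family, also had mostly lower values. Of the 103 above 0, 99 were lower in *Cxxc1*-deficient cells as deposited and 62 under level scaling. As deposited, 62 (60.2%) had a decrease of 2-fold or more and 0 an increase of that size, the median was 2.17-fold lower, and 75 lay below the median of their level. Under level scaling the medians of the LSm list and of the list of U1, U5 and minor snRNP proteins turned to a higher level (log2 0.41 and 0.15). Over the whole table the deposited shares were 60% lower and 17.4% at least 2-fold lower. Among all well-expressed genes they were 95.2% and 56.8%. Only 56 genes of the lists were well expressed, and 43 of these were at least 2-fold lower. The members' median of 2.72-fold stood above that of these lists together, and the difference was not tested.

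The U1 70K gene *Snrnp70* was 792 in WT and 149 in deficient cells, 5.32-fold lower with an interval of 3.94 to 7.20. In its list, proteins of the U1, U5 and minor snRNPs, 5 of 11 genes were at least 2-fold lower, among them *Snrnp48* (154 and 71). LSm genes, which encode the ring of the U6 snRNP and related proteins, were at least 2-fold lower in 4 of 12 cases, with *Lsm8* at 714 and 132 (5.41-fold, 3.51 to 9.09) and *Lsm14a* at 1093 and 375. *Lsm5* and *Lsm7* were listed at 0 in both libraries, and 88.2% and 97.4% of their windows recur elsewhere.

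Genes of the PRP19-associated complex and the catalytic steps were at least 2-fold lower in 19 of 25 cases, among them *Cwc15* (201 and 41, 4.90-fold) and *Syf2* (216 and 52, 4.15-fold). For the exon junction complex, which marks spliced mRNAs, this was 5 of 9, with *Magoh* at 281 and 68 and *Acin1* at 378 and 128. Other RNA-binding regulators of splicing were at least 2-fold lower in 19 of 30 cases, with *Sfpq* at 1390 and 339 (4.10-fold).

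SR-related proteins and SR protein kinases were at least 2-fold lower in 10 of 16 cases. *Clk3*, a kinase that phosphorylates SR proteins, was 610 in WT and 123 in deficient cells (4.96-fold, 3.79 to 6.53), and *Luc7l2*, a U1-associated protein, was 753 and 208 (3.62-fold, 3.08 to 4.26). *Srrm2*, a large scaffold protein of nuclear speckles, was higher in deficient cells, at 672 and 898, a ratio of 1.34 with an interval of 1.24 to 1.44. It was the only well-expressed gene of these lists that had a higher value as deposited.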

How the data were processed

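RNA from DP thymocytes of 1 WT and 1 *Cxxc1*-deficient sample was measured by mRNA-seq. Libraries were made with the NEBNext mRNA kit and read on an Illumina HiSeq. The submitters' processing notes name CASAVA 1.8.2, Bowtie 1.0.1, mm9 and Partek. The authors kept uniquely mapped reads. What was deposited is a whole-number score for each gene, normalized by the authors. Its unit and scaling are not given in the sources used here. Scores were not counts, so no count test was run.

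Samples were grouped by title. The ratio of *Cxxc1*-deficient to WT was taken after raising each value to at least 1. A single library of each genotype allows no test. Genes were counted as changed at 2-fold, and the share of all genes past that fold is given beside members. The value of 1 read was recovered from the deposited scores and GENCODE vM1 transcript lengths: low values lay within 0.1 of whole reads for 71.8% of genes in WT and 73.2% in the deficient library, against 9.57% and 11.9% with the constant 10% larger. Clopper-Pearson intervals used these approximate reads, and PCR copies are not independent molecules. Windows of 50 bases were compared with mm9 (NCBIM37, seeds of 16 bases). Analyses used scipy 1.17.1, numba 0.67.0, pandas 2.3.3 and numpy 2.4.6 under Python 3.11.15, and the recovery of the read value was tested on simulated data.

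Members and lists were chosen with earlier results of these data known. Named were all SR genes, other members with a mean of at least 100, members listed at 0 or at least 2-fold higher, *Cxxc1*, and the 2 largest folds in each direction of each pathway list among genes with a mean of at least 100. Other members were named after their values were seen. A member and a gene of the lists that this rule names are not reported here, though they stay in the counts. *Ess2*, of the list of other regulators, was not found under this symbol. Protein features planned for the members were not analysed here.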

Additional observations from a re-analysis of the deposited data

How the results depend on the processing

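No paired analysis was possible because there was a single library of either genotype and hence no test, and for the same reason no library could be left out. No summary over the members or their 3 groups changed direction under the alternatives run. Of the values recomputed, 53 moved by less than the limit set for them and 31 by more. The 53 include the median relative to all genes under the scalings, which a constant factor leaves as it is by construction. They also include the count of lower members, 59 as deposited and 45 with equal medians of genes with a mean of at least 100. The median log2 ratio of all members, SR proteins, hnRNPs and core genes was -1.06, -1.05, -1.59 and -0.69 with equal 75th percentiles, -0.88, -0.87, -1.41 and -0.52 with equal sums without the 100 highest genes, and -0.45, -0.44, -0.98 and -0.083 with equal medians of genes with a mean of at least 100. At least 2-fold lower were 28 members with equal sums and 17 with those equal medians. At least 2-fold higher were 1 with equal 75th percentiles, 1 with equal sums and 6 with equal medians. The share of all genes past 2-fold under these scalings is not given here. The median log2 ratio of all genes was 0.19 with equal 75th percentiles, 0.36 with equal sums and 0.795 with equal medians. With a pseudocount of 10 the medians of all members, hnRNPs and core genes were -1.32, -1.78 and -0.91. Restricted to members with a mean of at least 100, the medians of all members, SR proteins and core genes were -1.58, -1.60 and -1.41, with 31 members lower, 27 at least 2-fold lower and a median of -1.38 relative to all genes. A limit of 3-fold left 26 members lower, and a limit of 1.5-fold gave 1 higher. Without members whose exons overlap another gene, a setting chosen after seeing the data, SR proteins and hnRNPs had medians of -1.18 and -1.73, and 27 of 43 members were at least 2-fold lower, against 45 of 65. Level bands and intervals under the scalings were also chosen after seeing the data. Apart from the settings that tested fewer genes, the cause was not tested. Depth limits the core genes most, and an interval says nothing of the spread between animals.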
